A study of Mus musculus with 118 samples.

Results

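7 myelin genes, Mbp, Mobp, Cnp, Mag, Mog, Mal and Cldn11, were followed in single SOM+ interneurons of mouse cortex. They were the 7 of 23998 gene symbols in the count table that were named for this purpose, and they were selected on earlier reads of the same cells, in which Mbp had stood out between cortical areas. The values that chose them (their levels and the area differences of Mbp) are therefore given as descriptions, without tests. Cells entered if they had at least 1500 detected genes, if Slc17a7 did not exceed the sum of Gad1 and Gad2, and if Sst was read. This left 42 of 44 cells in V1 L4, 17 of 19 in V1 L5, 34 of 39 in S1 L4 and 16 of 16 in S1 L5.

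The cells came from adult SOM-Cre/Ai9 mice, in which cells with a present or past somatostatin promoter activity carry tdTomato, so the label marks a lineage and includes more than 1 kind of interneuron. Each cell was patched in layer 4 (L4) or layer 5 (L5) of primary visual (V1) or primary somatosensory cortex (S1), its cytosol was drawn into the pipette, and its cDNA was sequenced (Patch-seq). No group received a treatment, and all 4 groups share the genotype. Because no label names the animal, an area and layer is 1 sample, no p-value was computed over cells, and intervals cover counting error only.

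Total counts per kept cell ranged from 97904 to 3295232 with a median of 1111833. The 9 dates in the labels were taken as recording days, with all L5 cells in the earlier of 2 series. The authors report fewer mice for Patch-seq than there are dates. A day is therefore not a separate animal, and an SD over days is not a spread over animals. Gad1 was read in all kept cells, but Gad1, Gad2 and Sst served to choose them and do not check the label. The neuronal gene Snap25 stood at 5644 CPM (the count of a gene scaled by the total count) when the cells were pooled.

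Myelin is the multilayered membrane that oligodendrocytes wrap around axons. Mbp is a cytoplasmic protein that holds the inner faces of the membrane together, and its mRNA is carried out into oligodendrocyte processes and translated there. The same locus also makes transcripts from an upstream start, the golli-Mbp transcripts, which are known from neurons and immune cells and not only from oligodendrocytes. The axons of some cortical interneurons are themselves myelinated.

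The promoters of Mobp and Cnp are shown because these were the only members besides Mbp that were read in more than 7 cells. Each is the plus-sense sequence from 250 bases before to 50 bases after the gene's start (RefSeq, GRCm38.p6), written 5′ to 3′, with every match of ACAAAG or its reverse complement CTTTGT in capitals. This is the core word bound by the HMG domain of Sox proteins, of which Sox10 is the factor of the oligodendrocyte lineage. Mobp lies on chr9:120149492-120149791 (plus strand) and Cnp on chr11:100574689-100574988 (plus strand).
Mobp: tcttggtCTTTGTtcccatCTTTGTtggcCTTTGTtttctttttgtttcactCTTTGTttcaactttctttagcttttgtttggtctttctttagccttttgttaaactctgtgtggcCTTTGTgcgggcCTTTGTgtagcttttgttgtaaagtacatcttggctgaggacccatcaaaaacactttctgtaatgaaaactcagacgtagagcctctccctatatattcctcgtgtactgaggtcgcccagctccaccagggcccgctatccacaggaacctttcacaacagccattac
Cnp: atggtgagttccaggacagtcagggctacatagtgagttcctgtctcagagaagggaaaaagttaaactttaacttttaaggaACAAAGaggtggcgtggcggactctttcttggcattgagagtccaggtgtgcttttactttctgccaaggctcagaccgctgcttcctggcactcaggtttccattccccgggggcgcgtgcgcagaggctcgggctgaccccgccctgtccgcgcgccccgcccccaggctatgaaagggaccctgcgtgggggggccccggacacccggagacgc

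The Mobp promoter held 6 matches of the word and the Cnp promoter 1. Of the members not shown, those of Mog, Mal and Cldn11 held 0, and that of Mag held 0 or 1, depending on the start. Of 32851 promoters of the same length, 18.7% held at least 1 match, and 1 promoter (0.00304%), that of Mobp, held 6 or more. Sox10 itself was read in 5 kept cells. The Mobp matches lie in its upstream part among similar words such as ttttgt, and the share of promoters makes no allowance for such repeats. A match is a stretch of letters and not a shown binding site.

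Mbp was the most widely read member, with a read in 85 kept cells and none in 24. In V1 L4 it ranged from 0 to 3522 CPM with a median of 67.2 and was read in 31 of 42 cells. In S1 L4 it ranged from 0 to 9382 CPM with a median of 505 and was read in 26 of 34 cells. The range was 0 to 2752 CPM in V1 L5 (median 88.7, 13 of 17 cells) and 0 to 4162 CPM in S1 L5 (median 248, 15 of 16 cells). The order of the medians was thus S1 L4, S1 L5, V1 L5 and V1 L4, while the shares of cells with a read had wide and overlapping 95% Clopper-Pearson intervals, from 58.0 to 86.1% in V1 L4 and from 58.8 to 89.3% in S1 L4. The single cells of all 4 groups overlapped.

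Mobp encodes another small basic protein of compact myelin. In L4 it was read in 18 of 34 S1 cells (52.9%, interval 35.1 to 70.2) and 9 of 42 V1 cells (21.4%, 10.3 to 36.8). In L5 it was read in 9 of 16 S1 cells (56.3%, 29.9 to 80.2) and 5 of 17 V1 cells (29.4%, 10.3 to 56.0). Its median was 0 CPM in both V1 groups, 7.81 CPM in S1 L4 and 17 CPM in S1 L5. The highest cells of S1 reached 387 CPM in L4 and 117.5 in L5, and those of V1 195.1 CPM in L4 and 693 in L5, so the areas overlapped and the single highest cell was from V1. With each cell thinned to 250000 reads, the shares were 50% in S1 and 19.05% in V1 for L4, and 60.0% and 33.3% for L5.

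Cnp, an enzyme of the cytoplasmic channels of myelin, was read in 11 of 42 V1 cells and 9 of 34 S1 cells of L4, and in 5 of 17 V1 cells and 7 of 16 S1 cells of L5. Its shares were 26.2% and 26.5% in L4 of V1 and S1, and its pooled levels of 27.02 CPM (95% Poisson interval 25.6 to 28.5) and 26.6 CPM (25.1 to 28.1) overlapped. In L5 the pooled level was 20.5 CPM in V1 and 35.1 CPM in S1. Cnp thus did not show in L4 the order of areas that Mbp and Mobp had.

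The remaining members were rare. Mag, the adhesion molecule of the inner myelin face, was read in 5 cells. Mog, on the outermost sheath, was read in 3 cells. Mal, a proteolipid of myelin rafts, was read in 6 cells, and Cldn11, which forms the tight junctions of the sheath, in 7 cells. None of these 4 was read in every group. In V1 L4, Mag and Cldn11 had 0 counts in 42 cells, which allows a share of up to 7.14% of cells, and in S1 L4 they were read in 3 and 5 of 34 cells. Per length, on the deposited RPKM scale, the mean over all kept cells was 319 for Mbp, 14.7 for Cnp, 10.4 for Mobp, 2.26 for Mog, 1.89 for Mag, 1.73 for Cldn11 and 0.381 for Mal.

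**Figure D1:**
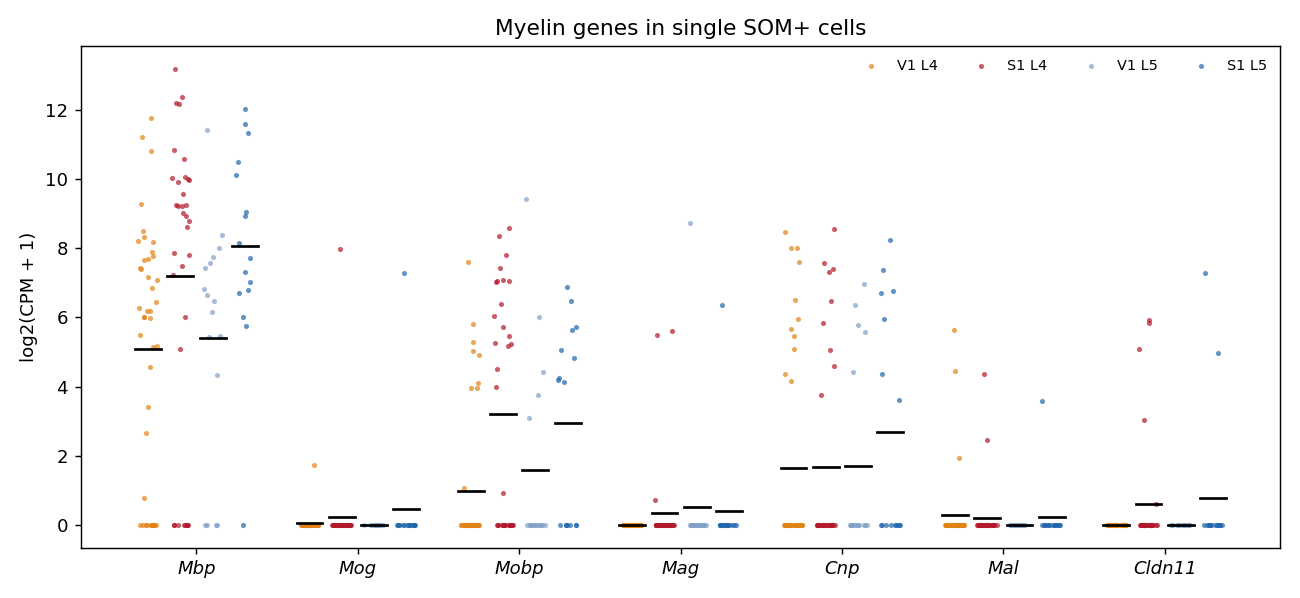
Level of each myelin gene in every kept SOM+ cell, as log2(CPM + 1), with 1 point per cell, colored by area and layer, and a black line at the mean of the group. Mbp was above 0 in 85 cells, Mobp in 41 and Cnp in 32, and the other 4 genes were at 0 in nearly all cells.

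Differences between areas were taken on the mean of log2(CPM + 1) and set beside all genes with at least 32 counts in at least 10 of the cells compared. In L4, the mean for Mbp was 7.20 in S1 and 5.09 in V1, a difference of 2.11, and for Mobp it was 3.21 and 0.99, a difference of 2.22. Cnp differed by 0.01. Thus 2 of the 3 members past the filter were higher in S1 by 1 or more, beside 8.12% of all 9201 genes, which is read as a description because Mbp was chosen on this contrast. The median difference of all genes was 0.01.

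Within recording days that held at least 2 cells of both areas, the L4 difference of Mbp was 0.90 ± 2.39 (mean ± SD, n = 5 days), with 3 days above 0 and 2 below. That of Mobp was 2.42 ± 1.69, with 4 days above 0 and day 2 at exactly 0, since no cell of that day had a Mobp read. The mean of Mobp exceeded its spread over days and that of Mbp did not. None of the 3 members was higher in S1 in every day, as were 2.77% of all genes.

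In L5, Mbp was at 8.07 in S1 and 5.41 in V1, a difference of 2.66 (within days 3.13 ± 1.38, n = 4 days, all above 0). Thinned to 250000 reads, the difference was 1.64. Mobp, which did not pass the filter, was at 2.95 in S1 and 1.57 in V1, with 3 of 4 days above 0 and 2.0 ± 2.22 within days. Cnp differed by 0.98 and was higher in 3 of 4 days. Of the 2 members past the filter, 1 was higher in S1 by 1 or more, beside 23.6% of 6402 genes, and 1, Mbp, was higher in every day, beside 9.42%. Genes in general were higher in S1 L5, with a median difference of 0.24.

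**Figure D2:**
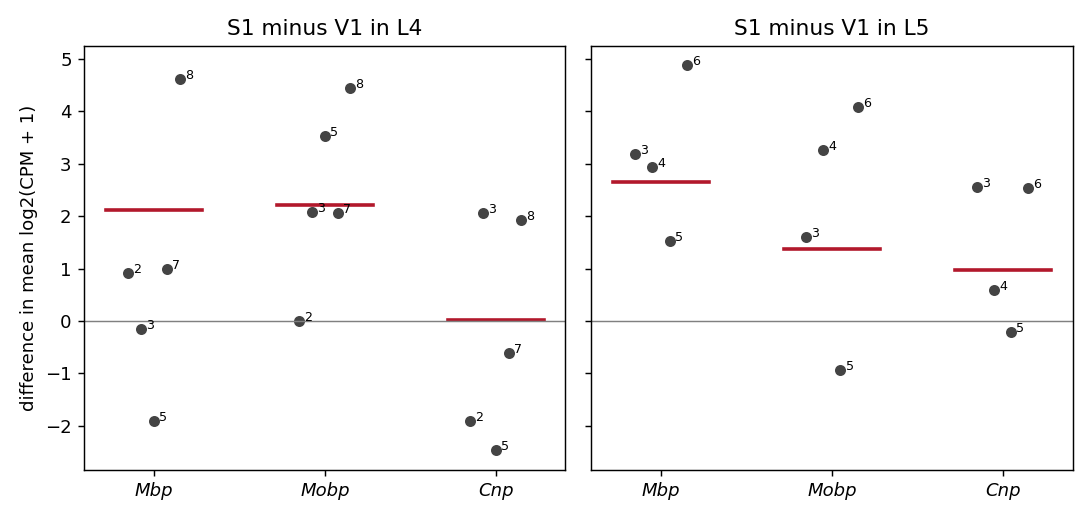
Difference in mean log2(CPM + 1), S1 minus V1, in L4 (left) and L5 (right), with 1 point, numbered by day, for each day with 2 or more cells in both areas, and a red line at the difference over all cells. In L4, Mobp is at or above 0 in all 5 days whereas Mbp is above 0 in 3, and in L5 Mbp is above 0 in all 4 days.

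Layers were compared in the earlier recording series alone. In V1, Mbp was at 5.41 in L5 and 3.81 in L4, a difference of 1.60, but within the 2 days that held both layers the differences were -2.35 and -1.86. The V1 layer difference of Mbp was thus positive over all cells and negative within both days. In S1, Mbp was at 8.07 in L5 and 5.66 in L4, and L5 was higher in 3 of 3 days, with 2.63 ± 2.35 within days. The share of all genes higher in every day was not computed for layers. Over all kept cells, which add the later series to L4, the S1 order was the other way. There the Mbp median was 505 CPM in L4 and 248 in L5, and the pooled level 967 and 602 CPM. Mobp differed by 1.15 between the layers of V1 and by 0.55 between those of S1. The S1 value was -0.36 as the mean of within-day differences, -0.25 without day 2, -0.017 without day 6 and 2.05 without day 5, so its sign depended on the days included. A difference of 1 or more toward L5 was found for 1 of the 2 members past the filter in V1 (Mbp), beside 22.3% of genes, and for 1 of 2 in S1 (Mbp), beside 23.3%.

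Many cells had a read of more than 1 member. No number expected under independent reads was computed, and Mbp was read in most cells. Of the 85 cells with an Mbp read, 24 had no other member and 61 had at least 1 more. 19 cells had none of the 7, and 5 cells had another member without Mbp. 43 cells had 2 members, 14 had 3, 4 had 4, and 1 S1 L5 cell had all 7, with Mbp at 4162 CPM, Cnp at 165.1, Mog at 155.4, Mag at 80.5, Cldn11 at 30.5, Mobp at 18.03 and Mal at 11.1 CPM. Cells with Mbp as their only member were 12 of 42 in V1 and 5 of 34 in S1 for L4, and 4 of 17 and 3 of 16 for L5.

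Mobp was read in no kept cell without Mbp. All 41 cells with Mobp also had an Mbp read, and 0 of the 24 cells without Mbp had Mobp, which allows a share of up to 12.5%. Among the 2561 genes read in 30 to 50 kept cells, 2 genes (0.0781%) had no cell outside the Mbp cells, Mobp and Tyw1, the latter named only after its values were seen. Cnp had 2 such cells of its 32. Mag had 2 of its 5 cells there and Mog 1 of its 3. The cells without Mbp had a median total of 934546.5 counts, beside 1201818 in cells with Mbp.

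**Figure D3:**
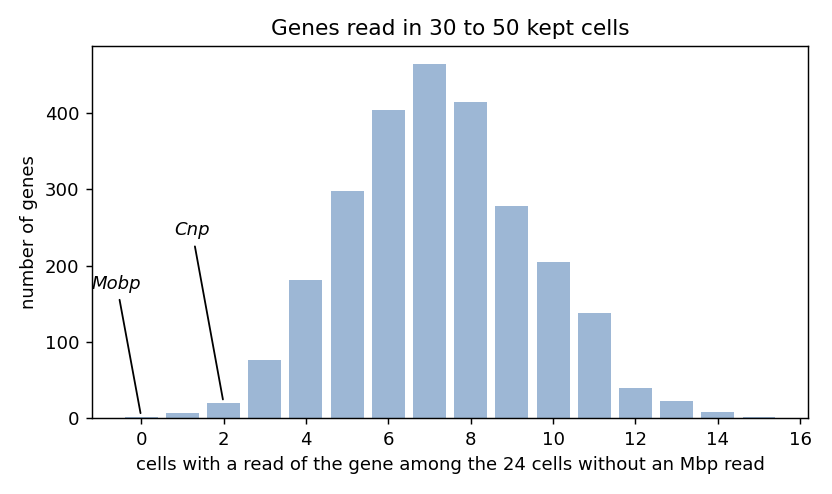
Number of genes (vertical axis) by the number of the 24 cells without an Mbp read in which the gene was read (horizontal axis), for 2561 genes read in 30 to 50 kept cells. Mobp stands at 0 and Cnp at 2, left of most genes.

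The share of cells with Mobp was larger where the Mbp count was larger. It was 3 of 22 cells with 1 to 99 Mbp counts, 22 of 47 with 100 to under 1000 and 16 of 16 with 1000 or more. Cnp had no such order, with 9 of 22, 12 of 47 and 9 of 16 cells. In cells with both, there were 7.16 Mobp reads per 100 Mbp reads in the median, from 0.146 to 106.3. Pooled, Mbp made up 89.1% of the reads of the 7 members.

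**Figure D4:**
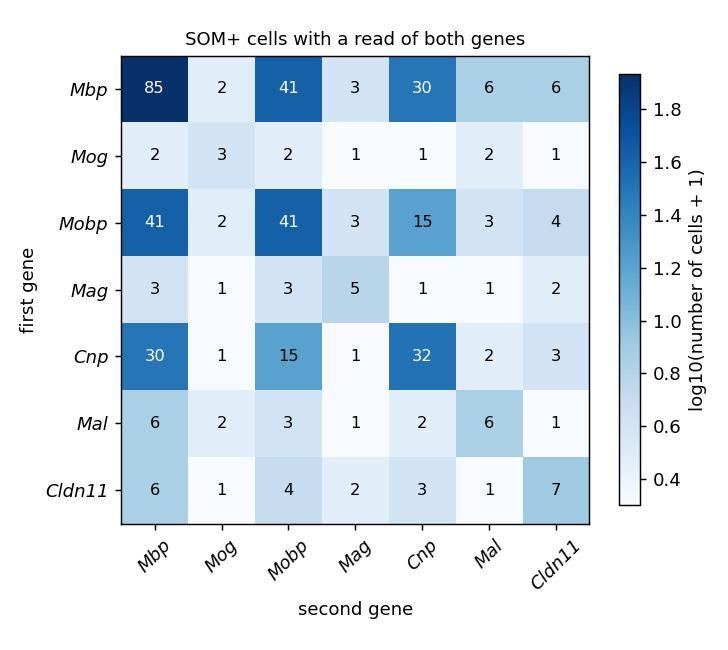
Number of kept cells with a read of both genes, with the number of cells for each gene alone on the diagonal and shading on a log10 scale. The Mobp row repeats its diagonal value of 41 under Mbp, while Mobp and Cnp share 15 cells.

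Over the kept cells, Mobp had the highest Pearson correlation with Mbp of 9992 genes, 0.62 on the log2(CPM + 1) scale (Spearman 0.69), and 0.49 and 0.52 within L4 and L5 of V1 and 0.70 and 0.56 within those of S1. Among the 5 genes with the next highest values were Glul, Acsbg1 and Trp53inp2, each at 0.36. Glul and Acsbg1 are known from astrocytes. Cnp stood at 0.25, rank 81. These are descriptions over cells that share recording days. The Mbp level was nearly unrelated to depth, with a Spearman correlation of 0.01 with the number of detected genes and 0.03 with the total count.

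For Mbp, the ratio of the count to the RPKM table differed widely between cells. RPKM divides the read count by the depth and by a transcript length, so the length that was used can be recovered for each cell as a ratio of the tables, set to scale on 6412 genes with 1 RefSeq transcript. The recovered length was 1.72 kb for Mog, whose RefSeq transcript has 1.704 kb, 2.44 kb for Mag (2.434 kb) and 1.89 kb for Cldn11 (1.87 kb), with little spread between cells. It ranged from 2.22 to 2.57 kb for Cnp, which has 1 transcript of 2.357 kb, and from 1.51 to 5.16 kb for Mobp, whose RefSeq transcripts have 1536 and 3286 bases, so the ratio can lie beyond every listed transcript. For Mbp it ranged from 1.88 to 4.90 kb. An implied length is therefore given as this ratio and not as a measured transcript. This comparison was added after the data had been seen, and how the length of a gene with several transcripts was formed is not given in the sources used here.

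Mbp lies on chromosome 18 from 82475146 to 82585637 on the plus strand of GRCm38 and has 8 RefSeq transcripts. Classic transcripts start between 82554470 and 82554580, and those that reach the end of the gene have 1922 to 2070 exonic bases. A golli-type transcript starts upstream at 82475146, ends at 82558703 inside the classic gene, and has 4797 exonic bases. Another with the upstream start runs to 82585637 and has 2492 exonic bases. The implied length was below 2.2 kb in 49 cells, which is close to the classic transcripts. It was at least 4.5 kb in 12 cells, of which 11 lay within 1% of 4.85 kb, near the longest golli-type transcript, and it lay between these limits in 24 cells.

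Mobp went with the short lengths. It was read in 34 of 49 cells of short implied length (69.4%, interval 54.6 to 81.7), in 7 of 24 cells between and in 0 of 12 cells of long implied length, which allows a share of up to 25%. Cnp did not follow this order, with reads in 19 of 49 short, 4 of 24 between and 7 of 12 long cells. Cells of long length had 33 to 304 Mbp counts, fewer than most cells of short length. In the same range of counts, 9 of 14 cells of short length had Mobp (64.3%, 35.1 to 87.2), beside 0 of 12 cells of long length. In that range Cnp was read in 4 of 14 short cells (28.6%, 8.4 to 58.1) and 7 of 12 long cells (58.3%, 27.7 to 84.8). The long cells were also deeper, with a median total of 1685437.5 counts beside 987020, and came from 7 recording days.

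**Figure D5:**
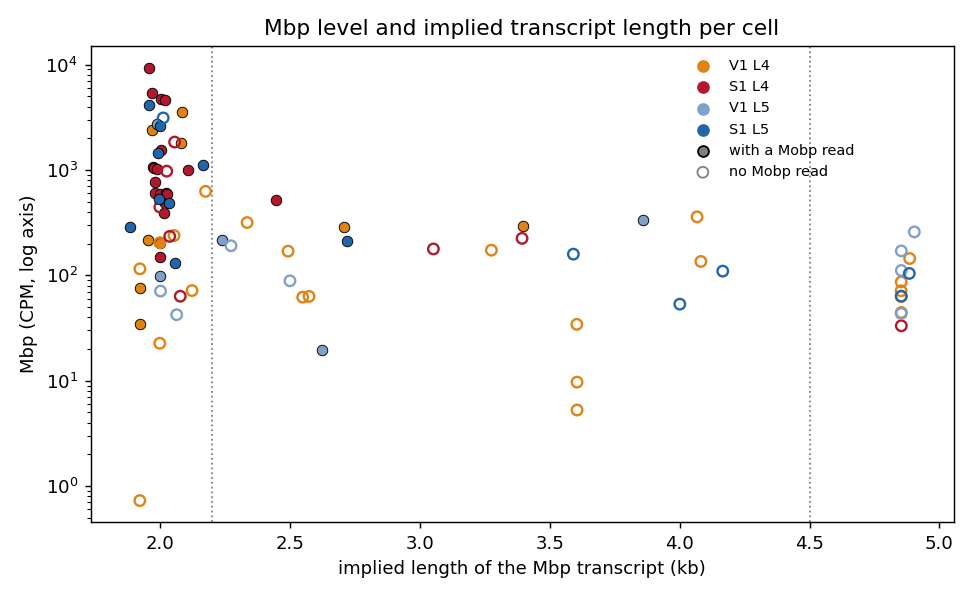
Mbp level (CPM, log axis) against the implied length of the Mbp transcript (kb) for the 85 kept cells with an Mbp read, colored by area and layer, filled where the cell also had a Mobp read, with dotted lines at 2.2 and 4.5 kb. Cells above 1000 CPM are all at the short end, and the 12 cells near 4.85 kb are all open.

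Only the class of short implied length contributed more Mbp to the pooled level in S1 than in V1. The classes come from the same Mbp reads, and the cells with the highest Mbp levels were all of short length. A group with more Mbp was therefore likely to show it in this class, so the split is a description. In L4, the cells of short length made up 22 of 34 kept cells in S1 and 14 of 42 in V1. They contributed 931 CPM (Poisson interval 923 to 940) and 142.9 CPM (139.7 to 146.2) to the pooled level of their group. Cells between the limits contributed 34.5 CPM in S1 (3 cells) and 62.5 CPM in V1 (12 cells). Cells of long length contributed 1.35 CPM in S1 (1 cell) and 14.6 CPM in V1 (5 cells). Both other classes were thus lower in S1, where they held few cells. L5 had the same order. There the short class, 9 of 16 cells in S1 and 4 of 17 in V1, contributed 543 and 71.3 CPM. The class between, 4 cells in S1 and 5 in V1, contributed 46.3 and 66.0 CPM. The long class, 2 cells in S1 and 4 in V1, contributed 12.3 and 32.8 CPM.

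Of all Mbp counts, the short class held 96.3% and 90.3% in L4 and L5 of S1, and 65.0% and 41.9% in those of V1. Without the cell with the most Mbp counts of each class, the short class still gave 754 CPM for S1 beside 107.2 for V1 in L4, and 403 CPM for S1 in L5. In V1 L5 it fell from 71.3 to 11.4 CPM, because 1 of its 4 cells held most of the counts. Splitting each cell's reads between lengths of 2.0 and 4.85 kb gave a short part of 937 CPM for S1 beside 161.4 for V1 in L4, and a long part of 30.5 and 58.7 CPM. In L5 the short part was 545 and 107.5 CPM and the long part 56.2 and 62.6 CPM. The split assumes these 2 lengths alone, while Mbp has 8 RefSeq transcripts, so its parts are not measured amounts of transcripts.

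Recording day moved with these classes. On day 2, none of 4 S1 and 11 V1 L4 cells was of short length. Within days, the share of L4 cells of short length was higher in S1 in 3 of 5 days, at 0 in both areas on day 2, and lower on day 3, with 5 of 6 cells beside 2 of 2. The 3 higher days held 1 of 2 S1 cells beside 1 of 3 V1 cells (day 5), 5 of 9 beside 6 of 12 (day 7) and 2 of 2 beside 4 of 9 (day 8). Leaving day 2 out, the share was 22 of 30 cells in S1 and 14 of 31 in V1. These counts include days without at least 2 cells of both areas. Among them was day 9, with 7 S1 cells, all of short length, and no V1 cell. In L5 it was higher in S1 in 3 of 4 days. The part of recording day in the difference was not tested beyond these values.

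The 35 other genes of myelin and oligodendrocytes gave a mixed picture. In L4, 14 of them passed the filter, of which 5 were higher in S1 by 1 or more, beside 8.12% of all genes, and 1 was lower, with a median of 0.42. Among those higher were Gpm6b (by 1.60), Olig1 (1.17), Pllp (1.14) and Bcas1 (1.02). Tspan2, a tetraspanin of myelin, differed by -1.02 and was lower in 5 of 5 days. As means within days, Pllp differed by 0.24 and Bcas1 by 0.82. In L5, 8 passed, with 1 higher in S1 (Nfasc, by 1.08), beside 23.6% of all genes, and 1 lower (Sirt2, -1.12). Both fell short of 1 at equal reads, with 0.62 for Nfasc and -0.84 for Sirt2, and each had 2 days above and 2 below 0. Between layers of V1, 3 of 8 were higher in L5 by 1 or more, beside 22.3% of all genes, and 2 were lower. Of the 3, Sirt2 and Omg were above 0 in 2 of 2 days and Gpm6b in 1 of 2. Between layers of S1, 0 of 9 were higher in L5, beside 23.3% of all genes, and 1 was lower. The share of all genes lower by 1 or more was not computed.

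Several genes of the list were read in most kept cells and are known from neurons too. Pooled over all kept cells, the neuronal surface proteins Omg, Nfasc and Cntn2 stood at 245, 151.7 and 79.8 CPM, Cadm4 at 21.9 CPM, the proteolipid relative Gpm6b at 230 CPM, the RNA-binding protein Qk at 154.6 CPM and the deacetylase Sirt2 at 68.6 CPM. Car2 stood at 39.8 CPM, Trf at 31.2, Bcas1 at 29.4, Tspan2 at 24.4, Pllp at 15.8, Olig1 at 14.8 and Gal3st1 at 9.55 CPM. 20 genes of the list were read too rarely to pass the filter over all cells. Among oligodendrocyte genes with little known use in neurons, Ermn and Opalin were read in 4 cells each, Myrf in 7 and Olig2 in 1. Some other oligodendrocyte genes were read in more cells, with Hapln2 in 13, Olig1 in 16 and the member Mobp in 41.

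Markers of other cells moved with the members to different degrees. The 7 defining oligodendrocyte markers, which include 4 of the members, were read in 23 of 34 S1 L4 cells at 0 to 475 CPM in sum and in 10 of 42 V1 L4 cells at 0 to 195.1 CPM, with Mag and Cldn11 at 0 in V1 L4. In L5 they were read in 11 of 16 S1 cells (0 to 305 CPM) and 5 of 17 V1 cells (0 to 1118 CPM), with Mog, Cldn11, Ermn and Opalin at 0 in V1 L5. These summed levels were highest in the same groups as Mobp, which is itself the main part of the list at 28.7 CPM. A pooled level alone cannot tell more cells with a read from a higher level per cell, so the numbers of cells are given too.

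The 7 astrocyte markers, led by Aldoc (222 CPM) and Slc1a2 (108.5 CPM), were read in 31 of 34 S1 L4 cells (0 to 2516 CPM) and 35 of 42 V1 L4 cells (0 to 10322 CPM), and in 14 of 16 S1 L5 (0 to 2034 CPM) and 9 of 17 V1 L5 cells (0 to 1770 CPM). In L4 their pooled sum was 385 CPM for S1 and 561 CPM for V1, where the highest cell stood at 10322 CPM, while the median cell was at 283 CPM in S1 and 125.04 CPM in V1. In L5 the pooled sums were 190.3 and 177.5 CPM and the medians 95.1 and 27.7 CPM, so all but the pooled L4 sum had the order of areas of Mbp. The summed level had a correlation of 0.41 with Mbp over all kept cells and of 0.61 within S1 L4, on the log2 scale. The 8 microglia markers, among them C1qb (84.7 CPM), were at 275 CPM for S1 and 334 for V1 in L4 and at 196.8 and 700 CPM in L5, lower in S1 when pooled. The medians were 264 and 154.7 CPM in L4, higher in S1, and 72.3 and 98.8 CPM in L5, where the highest V1 cell reached 4052 CPM. Their correlation with Mbp was 0.25 over all kept cells and 0.43 within S1 L4. Of the Schwann cell markers, Pmp2 was at 0 in all kept cells and Prx was at 1.502 CPM. The 4 endothelial markers, led by Pecam1 (1.92 CPM) and Flt1 (0.322 CPM), were read in 11 cells, and of the excitatory neuron markers Camk2a (285 CPM) was read in all cells and Slc17a7 was at 4.82 CPM. The part of RNA from other cells in the member reads was not tested.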

How the data were processed

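RNA of single SOM+ cells was measured by Patch-seq, with cDNA made after Smart-seq2 and no molecular identifiers. The authors aligned the reads to mm10 with STAR 2.4.2a and deposited unnormalized read counts for each gene and RPKM values from rpkmforgenes with RefSeq models. Per the labels, bcl2fastq 2.20 made the read files. The counter is not given in the sources used here.

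Entries of 1 symbol were summed (24490 entries, 23998 symbols). No pair of cells held identical counts. Cells were kept with at least 1500 detected genes, Slc17a7 at or below Gad1 plus Gad2, and Sst above 0, and were grouped by labelled area and layer. Without named animals, cells were not used as replicates and no test was run. CPM used the total count on genes, differences are of mean log2(CPM + 1), and genes needed 32 counts in 10 cells. Intervals are at 95%, Clopper-Pearson for shares and Poisson for summed counts, and 3 counts were taken as the limit that 0 allows. Thinning drew 250000 reads per cell, which left out 3 cells.

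The members and lists were chosen with earlier results of these data known. The genes named are the 7 members, the listed myelin genes past the filter, the 5 genes most correlated with Mbp and the top 2 genes of each list of other cells, and values of further genes are marked where given. Some results under this rule are not reported here. The implied transcript length and its alternatives were added after the data had been seen. Scripts were tested on simulated counts. Coordinates are from GENCODE M21 on GRCm38, transcripts and promoters from RefSeq. Alternatives changed the detection limit, cell filters, pseudocount, scaling (edgeR 4.0.16 TMM, R 4.3.3), depth, unit and recording days. Python 3.11.15 was used with matplotlib 3.10.9, SciPy 1.17.1, pandas 2.3.3 and NumPy 2.4.6.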

Additional observations from a re-analysis of the deposited data

Results flagged for a closer look

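Myelin reads were also found in 6 of the 9 cells that the cell filters left out, which enter no comparison of the report. Among cells with fewer than 1500 detected genes, a V1 L4 cell of day 2 had Mbp at 1059 CPM, and a V1 L4 cell of day 3 had Mbp at 4334 and Mobp at 1119 CPM. Among cells without an Sst count, an S1 L4 cell of day 3 had Mbp at 1639 and Mobp at 62.6 CPM, and an S1 L4 cell of day 5 had Mbp at 550.4, Mobp at 39.1 and Cnp at 563 CPM. An S1 L4 cell of day 4 without an Sst count had Mobp at 17.7 CPM (51 counts) and 0 Mbp counts, the only cell of the series with Mobp and no Mbp. The V1 L5 cell with more Slc17a7 than Gad1 and Gad2 had Mbp at 354 CPM and no other member.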

How the results depend on the processing

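Mbp and Mobp were higher in S1 than in V1 under every alternative run, 40 of 40 values in L4 and 26 of 26 in L5. For Mbp in L4 the difference ranged from 0.90 (mean of within-day differences) to 2.29, and from 1.49 to 2.63 without single days. In L5 it ranged from 1.64 (thinned) to 3.24, and from 2.18 to 3.29 without single days. The V1 layer difference of Mbp (1.60) reversed to -2.11 as the mean of within-day differences and to -0.061 without day 2, and reached 2.28 without day 5. It was 0.96 and 2.24 with pseudocounts of 10 and 0.1, 2.46 after thinning and 1.16 in cells with at least 4000 genes. For the V1 layer difference of Mobp (1.15), leaving out day 3 gave 0.31. The share of cells with Mbp was 66.7 to 87.1% in V1 L4, 70.4 to 80.6% in S1 L4, 75 to 78.6% in V1 L5 and 90.9 to 100% in S1 L5 when single days were left out, and that with Mobp in S1 L5 46.2 to 81.8%, the highest without day 5. Cells with Mobp and no Mbp numbered 1 instead of 0 when cells without Sst were kept. As means of the CPM of cells, Mbp was at 282 and 1130 CPM for V1 and S1 in L4 and at 259 and 910 CPM in L5, and without the cell with the most counts at 185.5, 791, 112.4 and 464 CPM in the same order, while Mobp in V1 L5 fell from 20.9 to 5.94 CPM. The mean over cells of the Mbp share of member reads was 79.5%. With no filter on counts, 4.55, 14.9, 12.8 and 14.8% of genes passed a difference of 1 in the 4 comparisons. With the long class set from 3.5 kb, 1 of its 21 cells had Mobp. Replicate numbers only name cells and pair none. The differences over all cells, the pooled levels and the shares set cells of different days side by side. Only the within-day values compare cells of the same day. Day 9 held 7 S1 L4 cells and no V1 cell. The causes were not tested. Reads without molecular identifiers, 1 sample per group and days that may share animals limit all values.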
